A study of Mus musculus with 2 samples.

Results

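Heterotrimeric G proteins and the proteins that switch them were examined in Colon26 tumours of the mouse, with primary tumours set against liver metastases. Members were chosen by gene name: the Gα, Gβ and Gγ subunits, the numbered regulators of G protein signalling (RGS), the G protein-coupled receptor kinases (GRK) and the adenylyl cyclases. Of 16390 named genes with a probe, 65 met the rule, each through 1 probe, and 55 of them had a value on both arrays, out of 13506 such genes in all. Another 5 members had a value on 1 array and 5 on neither.

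Colon26 is an established mouse colon carcinoma line. The cells were placed under the lining of the rectum of Balb/c mice, and RNA came from the resulting primary tumours (Cy5) and from their metastases in the liver (Cy3). Each of 2 arrays held 1 primary tumour and 1 liver metastasis, grown and harvested independently, with the same dyes on both. The labels name no genotype, treatment, age or time for the mice, and all of the tumours stem from the same line. RNA of bulk tissue also holds the host's stromal, immune and liver cells. The deposited values are log ratios of the channels, taken here as log2, with a median over all genes of -0.02 on array 1 and -0.03 on array 2. Which channel is the numerator is not given in the sources used here, so values lie on a positive or a negative side that is not assigned to the tumour or the metastasis. A bias of a probe towards 1 dye is part of its value on both arrays and cannot be told apart from the tissue. The number of arrays limits the precision, and no channel intensity was used, so no value says how strongly a gene was expressed.

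A receptor that spans the membrane activates a G protein by making its α subunit release GDP and bind GTP, after which α and the βγ pair act on separate targets. Gs and Gi raise and lower adenylyl cyclase activity and with it cyclic AMP, Gq drives phospholipase C and calcium release, and G12/13 acts on the actin skeleton. RGS proteins speed up the hydrolysis of GTP by Gα and so end the signal, while GRKs phosphorylate active receptors and prepare them for arrestin.

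The members as a group lay close to 0, and Rgs16 stood apart from the rest. Rgs16 was the 1 member of 55 that passed an adjusted p of 0.05 in limma's moderated test over all genes, on the negative side, where 0.777% of all genes were called. None of the 55 was called on the positive side, where 2.12% of all genes were, and over both sides 2.9% of all genes were called. An unadjusted p under 0.05 was met by 12 members, against 27.5% of all genes. Counts given below for single families and lists stand beside the same shares, 2.9% called and 27.5% at an unadjusted p under 0.05. A ratio of at least 1 unit on both arrays was met by Rgs16 on the negative side (0.578% of all genes) and by no member on the positive side (1.69% of all genes). At 0.5 unit on both arrays, Rgs16 and Rgs11 were the members on the negative side (4.51% of all genes), and Gng11 and Rgs7 those on the positive side (7.91% of all genes). The median of the 55 members was 0.05, with 0.10 on array 1 and -0.01 on array 2, and that of all genes was -0.02. Positive values on both arrays were found for 21 members (33.9% of all genes), negative values on both for 15 (38.2% of all genes), and mixed signs or a 0 for 19 (27.8% of all genes). After each array was centred on its median, these numbers were 24, 15 and 16. Counts of signs given below for single families and lists stand beside the uncentred shares of all genes, 33.9%, 38.2% and 27.8%. For 45 members the 95% interval of limma lay within 1 unit of 0, which is a 2-fold ratio if the base is 2, as it did for 80.7% of all genes.

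**Figure D1:**
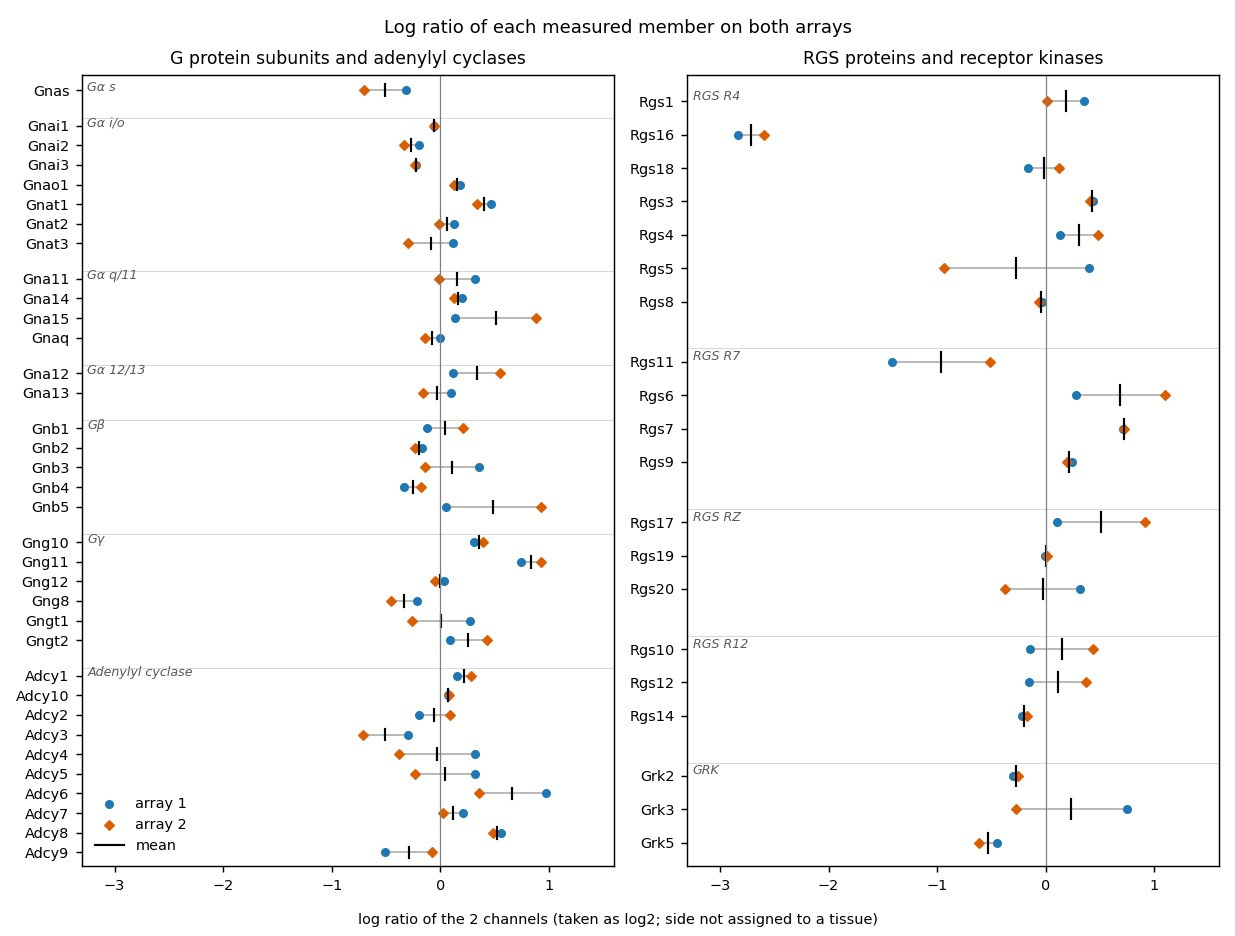
Log ratio (taken as log2) of the 55 measured members, one gene per line, grouped by role, with array 1 as blue circles, array 2 as orange diamonds and the mean as a black bar. Rgs16 lies at -2.83 and -2.59, and every other member has a mean between -0.97 and 0.83.

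**Figure D2:**
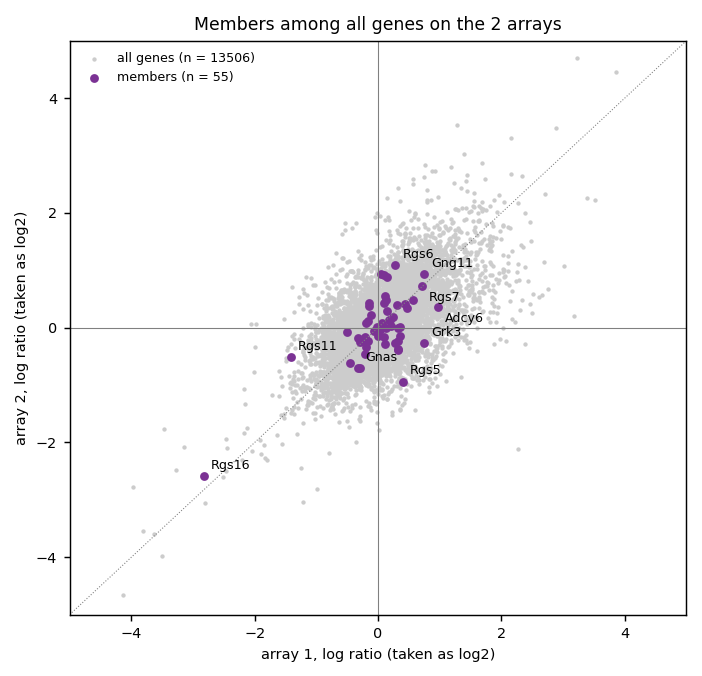
Log ratio on array 2 (vertical) against array 1 (horizontal), both taken as log2, for all 13506 genes in grey and the 55 members in purple, with the dotted line marking equal values. Rgs16 lies at the lower left near the line, while Rgs5 at 0.40 and -0.94 and Grk3 at 0.75 and -0.28 lie in the quadrant of opposite signs.

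Rgs16 belongs to the R4 subfamily, small RGS proteins made of little more than the RGS domain, and it speeds up GTP hydrolysis by Gi and Gq subunits. It had -2.83 on array 1 and -2.59 on array 2, so both arrays placed it far on the negative side. The mean was -2.71 ± 0.17 (SD, n = 2), which is 6.54-fold for base 2. Its 95% interval in limma ran from -3.12 to -2.30, and the adjusted p was 0.0200. By the value on its weaker array it ranked 10 of 13506 genes, and 7 on the negative side. The call was lost after quantile normalization (limma adjusted p = 0.0643) and without moderation (ordinary t test, adjusted p = 0.463), with the mean at -2.71 in both. In RNA of bulk tissue, fewer cells of a type and less RNA per cell cannot be told apart, and this holds for Rgs16 and for every value that follows.

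Rgs16 lies directly beside Rgs8, another R4 member, in the RefSeq gene order, and the upstream bases of both are shown to set the called member beside its neighbour. Rgs8 had -0.03 on array 1 and -0.06 on array 2, with a limma interval from -0.43 to 0.34. The sequences are the 250 bases before a RefSeq start in build GRCm38.p6, plus strand of chromosome 1, at chr1:153740103-153740352 for Rgs16 and chr1:153665423-153665672 for the start of Rgs8 that lies nearest to Rgs16. Capitals mark the CCAAT box.
Rgs16: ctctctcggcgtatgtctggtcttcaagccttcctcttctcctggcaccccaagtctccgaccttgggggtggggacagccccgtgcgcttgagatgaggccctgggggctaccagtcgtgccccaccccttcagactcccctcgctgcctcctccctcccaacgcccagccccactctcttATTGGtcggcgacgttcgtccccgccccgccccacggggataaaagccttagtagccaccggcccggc
Rgs8: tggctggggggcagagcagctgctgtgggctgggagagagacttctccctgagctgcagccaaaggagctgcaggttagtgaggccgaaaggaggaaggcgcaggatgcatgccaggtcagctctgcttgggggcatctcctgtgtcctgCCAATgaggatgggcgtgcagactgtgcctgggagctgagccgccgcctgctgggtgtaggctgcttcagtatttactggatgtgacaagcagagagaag
In Rgs16 the box reads ATTGG, which is CCAAT on the other strand, and begins at position -68 from the start. In Rgs8 it reads CCAAT and begins at -100. Such a box was found in 33.8% of the 32851 upstream windows of that length.

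Upstream windows were given for 48 of the 65 members. The cyclic AMP response element, to which the transcription factor CREB binds, was searched as its short form TGACG on both strands, which overlaps the long form TGACGTCA. The short form occurred in 17.8% of all windows, and 11 of the 48 members (22.9%) had it in at least 1 of their windows, against 19.8% of all genes in that table. These 11 were Gnas, Gnb1, Gng4, Gng7, Rgs2, Rgs4, Rgs8, Rgs12, Grk4, Adcy7 and Adcy9. In Rgs8 it lies in another of its windows, at -46, and not in the one shown. The 7 of them with a value on both arrays had a median ratio of 0.05, and the 33 measured members without the motif 0.04. The long form occurred in 1.77% of all genes and in 0 of the 48 members. TATAAA occurred in 14.3% of genes and in 6 members (12.5%), whose median ratio was 0.26, against 0.02 for the 34 measured members without it. These 6 lay on both sides, with means from -0.51 for Gnas to 0.49 for Gnb5, and did not include Rgs16. The CCAAT box occurred in 37.5% of genes and in 16 members (33.3%). The 13 of them with a value on both arrays had a median of -0.04, against 0.05 for the 27 measured members without it. Differences between these medians were not tested.

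Of the 6 neighbours of Rgs16 on each side in the order of protein-coding genes, 6 in all were measured. Limma called 0 of them, and 2 had an unadjusted p under 0.05, against 2.9% and 27.5% of all genes. These 2 were Npl, an enzyme of sialic acid breakdown, at 1.77 and 0.72, and Lamc1, a laminin chain, at -0.93 and -0.82. Npl alone of the measured neighbours was positive. The others, Rgs8 included, were negative on both arrays, where 38.2% of all genes were. Dhx9, an RNA helicase, had -0.06 and -0.14, and Shcbp1l and Teddm1a had means of -0.16 and -0.20. On the side of Rgs16 away from Rgs8, only Teddm1a had a value.

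The other R4 members stayed nearer to 0 than Rgs16, and limma called 0 of the other 6 that were measured, with Rgs3 the 1 at an unadjusted p under 0.05. Rgs3, which acts on Gi and Gq, had 0.44 and 0.41, a mean of 0.42 ± 0.02 (SD, n = 2; limma unadjusted p = 0.0365, adjusted p = 0.158). Rgs4, known from heart and brain, had 0.13 and 0.48, and Rgs1, known from lymphocytes, 0.35 and 0.02. All 3 were positive on both arrays, with means of 0.42, 0.30 and 0.18. Rgs18, a regulator in platelets, changed sign between the arrays, at -0.16 and 0.12.

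Rgs5, a marker of pericytes, the cells that wrap small vessels, had the widest spread of the members, at 0.40 on array 1 and -0.94 on array 2. Its mean of -0.27 ± 0.95 has an interval from -1.12 to 0.58 and shows no side. Among pericyte markers, 6 of 7 were measured, with means from -1.24 to 1.62 and a median of 0.04, and the ends of that range were both called. Kcnj8, a potassium channel, had 1.62 ± 0.07 (limma adjusted p = 0.0282) and Cspg4, the proteoglycan NG2, -1.24 ± 0.13 (limma adjusted p = 0.0398), calls that were kept in 7 and 5 of 10 alternatives. The markers thus lay on both sides, and their part in the values of Rgs5 was not tested. Rgs2, which favours Gq, had a value on array 2 only, at 1.29, and Rgs13 had none.

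The R7 subfamily, whose proteins bind Gβ5 and serve mainly in nerve and retina, had a median ratio of 0.45. The group lay on both sides: 3 of its 4 members were positive and 1 negative on both arrays, also after centring, scaling or quantile normalization. Rgs7 had 0.71 and 0.72 on the arrays, a mean of 0.72 ± 0.01 (SD, n = 2) whose interval ran from 0.33 to 1.10 (limma adjusted p = 0.0759). Rgs6 had 0.28 and 1.10 (adjusted p = 0.151) and Rgs9, the RGS protein of photoreceptors, 0.24 and 0.19 (adjusted p = 0.388). Rgs6 therefore rested mainly on array 2, while Rgs7 and Rgs9 were alike on both. Rgs11 had -1.42 and -0.52, a mean of -0.97 ± 0.64 whose interval ran from -1.61 to -0.33 (limma adjusted p = 0.102). In the limma test 0 of the 4 passed, and 3 had an unadjusted p under 0.05, against 2.9% and 27.5% of all genes. Gnb5, the partner subunit, had 0.05 and 0.93, so its positive mean of 0.49 ± 0.62 came from array 2.

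Members of the RZ and R12 subfamilies showed little that both arrays shared. Rgs17, an RZ member that acts on Gi and Gz, had 0.10 and 0.92, Rgs20 0.32 and -0.37, and Rgs19, also called GAIP, -0.01 and 0.01. Rgs19 was thus at 0 on both arrays, with a limma interval from -0.38 to 0.39. Of the R12 members, Rgs10 had -0.14 and 0.43 and Rgs12 -0.15 and 0.38, in both cases with opposite signs. Rgs14, a scaffold that also binds inactive Gi, had -0.22 and -0.17.

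The Gα subunits had means from -0.51 to 0.51 over 14 measured genes, with 0 called by limma (2 with an unadjusted p under 0.05). For 13 of the 14 the interval lay within 1 unit of 0, as it did for 80.7% of all genes. Gnas, which encodes Gs, had -0.32 and -0.70, a mean of -0.51 ± 0.27 (SD, n = 2; limma unadjusted p = 0.0309, adjusted p = 0.148). Its locus makes several overlapping and antisense transcripts, and which of them the probe reads is not known here. Gnal, the Gs relative of olfactory neurons, had no value.

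Within the Gi class, the widely expressed Gnai1, Gnai2 and Gnai3 were negative on both arrays, at -0.06 and -0.05, -0.20 and -0.34, and -0.22 and -0.23. Their intervals all held 0, the lowest bound being -0.66 for Gnai2. Gnao1, the Go subunit of neurons, had 0.18 and 0.13, and Gnat1, the transducin of rods, 0.47 and 0.33 (mean 0.40 ± 0.10, limma adjusted p = 0.176). Gnat2 of cones and Gnat3 of taste cells had opposite signs on the arrays, and Gnaz had no value.

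In the Gq class, Gna15, a subunit of blood cells that couples to many receptors, had 0.14 and 0.89, and its mean of 0.51 ± 0.53 rested on array 2. Gna11 had 0.32 and -0.01, Gna14 0.20 and 0.13, and Gnaq 0.00 and -0.14. The widely expressed pair Gnaq and Gna11 was thus near 0, with intervals from -0.47 to 0.32 and from -0.27 to 0.58. Of the G12/13 class, Gna12 had 0.12 and 0.55 and Gna13 0.10 and -0.16.

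Among the Gβ subunits, Gnb2 and Gnb4 were negative on both arrays, at -0.17 and -0.23 and at -0.33 and -0.17. Gnb1, the most general form, had -0.12 and 0.21, and Gnb3, known from cones, 0.36 and -0.14. Limma called 0 of the 5, with 0 at an unadjusted p under 0.05.

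Gγ subunits anchor the βγ pair to the membrane through a lipid on their last residues, and Gng11 was the member with the highest mean. Gng11 had 0.74 and 0.93, positive on both arrays, for a mean of 0.83 ± 0.13 (SD, n = 2), whose interval ran from 0.43 to 1.23 (limma adjusted p = 0.0616). It passed when genes with a value on 1 array were added to the fit (limma adjusted p = 0.0471) and in no other alternative. There the adjusted p ran up to 0.469, in the ordinary t test without moderation. Gngt1 and Gngt2, which carry the same farnesyl lipid as Gng11, had 0.27 and -0.27 and 0.09 and 0.43. Gng10 was positive on both arrays at 0.31 and 0.40, Gng8 negative on both at -0.21 and -0.45, and Gng12 at 0.03 and -0.04. On array 2 alone Gng4 had 1.05, Gng7 -0.88 and Gng2 -0.25, and Gng13 had no value.

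Gng11 is known from endothelium among other tissues, and 5 of 8 endothelial markers were measured. All 5 were positive on both arrays, where 33.9% of all genes were, with means from 0.14 to 1.04 and a median of 0.48. Robo4, a vascular receptor, was the 1 called by limma, at 0.89 and 1.19 (adjusted p = 0.0492), and it kept the call in 2 of 10 alternatives. The part of these markers in the value of Gng11 was not tested.

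Of the receptor kinases, 2 of the 3 measured were negative on both arrays. Grk5 had -0.45 and -0.62, a mean of -0.53 ± 0.12 (SD, n = 2; limma unadjusted p = 0.0179, adjusted p = 0.118), and Grk2, the general kinase that βγ recruits, -0.30 and -0.25. Grk3, its close relative, had 0.75 and -0.28 and shows no side. Limma called 0 of these 3, and Grk5 was the 1 with an unadjusted p under 0.05. Grk1, a kinase of the retina, had 2.33 on array 1 and no value on array 2, so it has no replicate, and Grk4 had no value. In the fit that kept such genes limma called Grk1 (adjusted p = 0.0377), with a spread taken wholly from other genes.

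All 10 adenylyl cyclases were measured, with means from -0.51 to 0.66. None passed in limma, and 3 had an unadjusted p under 0.05. Adcy6, a form that Gi inhibits, had 0.97 and 0.36, a mean of 0.66 ± 0.43 (SD, n = 2; limma adjusted p = 0.127), while Adcy5, its nearest relative, had 0.32 and -0.23. Of the forms stimulated by calcium and calmodulin, Adcy8 had 0.56 and 0.48 (limma adjusted p = 0.118), Adcy1 0.15 and 0.29, and Adcy3 -0.30 and -0.71 (limma adjusted p = 0.154). Forms of 1 regulatory class therefore lay on both sides. Those that βγ stimulates, Adcy2, Adcy4 and Adcy7, had means of -0.06, -0.03 and 0.12. Adcy9 had -0.51 and -0.07, and Adcy10, the soluble cyclase that bicarbonate activates, 0.07 and 0.08.

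Several members lie next to each other. In the RefSeq gene order, Gngt1 and Gng11 are adjacent and had means of 0.00 ± 0.38 and 0.83 ± 0.13 (SD, n = 2). Gnat1 lies 1 coding gene from Gnai2, and the means were 0.40 ± 0.10 and -0.27 ± 0.10, with every array of Gnat1 positive and every array of Gnai2 negative. Gnai3 and its neighbour Gnat2 had -0.23 ± 0.01 and 0.06 ± 0.10. The means were -0.07 and 0.16 for Gnaq and Gna14, -0.06 and -0.09 for Gnai1 and Gnat3, and 0.15 and 0.51 for Gna11 and Gna15. Rgs4 and Rgs5 had 0.30 and -0.27, and Rgs9 and Gna13, neighbours from different families, 0.22 and -0.03. The arrays of 1 gene lay wholly above those of the other in 5 of the 8 adjacent pairs, Rgs8 and Rgs16 included (62.5%), close to the 59.8% of all 9096 adjacent pairs of measured coding genes. Differences within pairs were not tested.

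**Figure D3:**
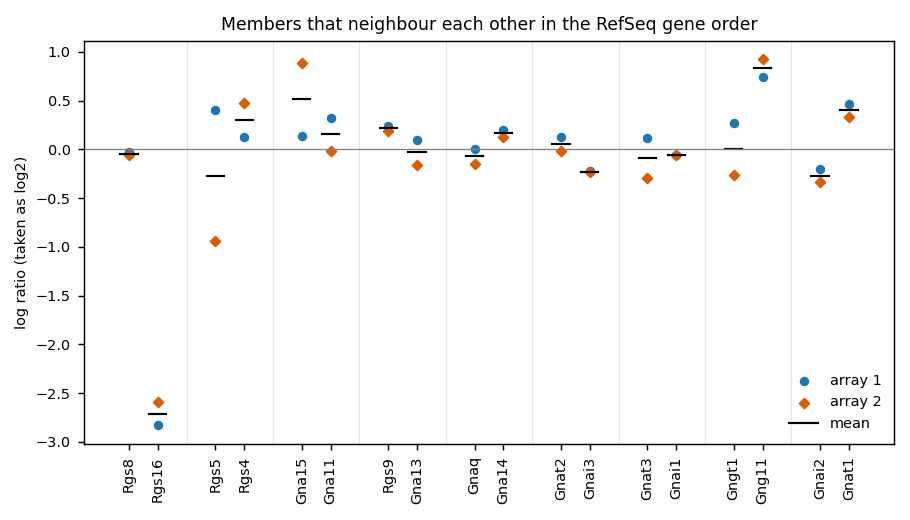
Log ratio (taken as log2) of measured members that are adjacent in the RefSeq gene order or have 1 coding gene between them, with array 1 as blue circles, array 2 as orange diamonds and the mean as a black bar. Rgs8 lies at -0.04 and its neighbour Rgs16 at -2.71, and Gngt1 lies at 0.00 and its neighbour Gng11 at 0.83.

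Other genes of the same signalling routes were taken from 10 lists with 194 genes, of which 119 were measured. Limma called 2, where 2.9% of all genes were called, and both lay on the positive side (2.12% of all genes): Ptger4, a prostaglandin E2 receptor that couples to Gs, and Nr4a2, a nuclear receptor induced by CREB. Ptger4 had 1.2 and 1.82, a mean of 1.51 ± 0.44 (SD, n = 2; adjusted p = 0.0438), and Nr4a2 had 0.94 and 1.37, a mean of 1.16 ± 0.31 (adjusted p = 0.0477). Both arrays thus placed them on the same side, but their calls were kept in 5 and 4 of 10 alternatives. The median of the 119 genes was -0.07, with 35 positive and 48 negative on both arrays, where 33.9% and 38.2% of all genes were.

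Receptors upstream of the G proteins lay on both sides. None of 12 amine receptors passed in limma, and 3 had an unadjusted p under 0.05. Adra1b, an adrenergic receptor that couples to Gq, had 2.08 and 0.78, and Htr1b and Hrh3 had means of -0.48 and -0.44. Of 15 lipid receptors, both arrays put 3 above 0 and 8 below it, where 33.9% and 38.2% of all genes lay. An unadjusted p under 0.05 in limma was met by 6 of them, against 27.5% of all genes. S1pr4, a sphingosine phosphate receptor of leukocytes, had 2.29 and 0.83 (limma adjusted p = 0.0866), against S1pr5 at -0.65 and -0.69. In the list of protease and purine receptors limma called 0 of 7, with 2 at an unadjusted p under 0.05. P2ry6, a receptor for UDP, had 0.87 ± 0.52, F2rl3, a thrombin receptor, 0.66 ± 0.56, and Adora3 -0.34 ± 0.08.

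Arrestins and other accessory proteins were likewise divided, 8 of 20 being positive and 8 negative on both arrays. Limma called 0 of them, and 7 had an unadjusted p under 0.05, against 2.9% and 27.5% of all genes. Arrb1, β-arrestin 1, had 1.33 and 0.73, a mean of 1.03 ± 0.43 (SD, n = 2; limma adjusted p = 0.0667), whereas Arrb2 had a mean of -0.28 ± 0.13. Gipc1, which binds Rgs19, had 0.62 ± 0.01, and Gpsm2, which holds Gi in its inactive form, -0.52 ± 0.08. Among 9 other proteins with an RGS domain, Axin1, a scaffold of the Wnt pathway, had -0.60 ± 0.10. Snx13 had 0.40 ± 0.18 and Arhgef11, an exchange factor that G12/13 drives, -0.27 ± 0.07. Limma called 0 of the 9, with 1 at an unadjusted p under 0.05.

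Downstream of Gq, 8 of 17 genes of phospholipase C and calcium were negative on both arrays (38.2% of all genes) and 4 positive (33.9% of all genes). Plcb4, a phospholipase C, had 1.11 and 2.01, a mean of 1.56 ± 0.64 (SD, n = 2), and an adjusted p in limma of 0.0504. Plcb1 and Plcb3, of the same family, had -0.51 ± 0.03 and -0.25 ± 0.01, with a limma adjusted p of 0.122 and 0.322. Plcb2 had opposite signs on the arrays, at 0.40 and -0.37. The means of the forms thus lay on both sides, and differences between them were not tested. Prkcd, a protein kinase C, had -0.70 ± 0.02 and Trio, an exchange factor, 0.75 ± 0.31. Limma called 0 of the 17, with 8 at an unadjusted p under 0.05.

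Genes of the cyclic AMP route lay on both sides, with 5 of 19 positive on both arrays, 6 negative and 8 mixed. Their median was -0.01, with 0 called by limma (4 with an unadjusted p under 0.05). Rapgef3, the cyclic AMP sensor Epac1, had 0.69 ± 0.41 (SD, n = 2), Akap11, an anchor of protein kinase A, 0.58 ± 0.33, and Atf1 0.55 ± 0.28. Prkaca, the main catalytic subunit of protein kinase A, had 0.12 ± 0.24, and Creb1 -0.31 ± 0.14. Of the phosphodiesterases that break cyclic AMP down, 6 were measured. None of them passed in limma, and 3 had an unadjusted p under 0.05. Pde3b had 0.60 ± 0.11, Pde1c 0.77 ± 0.72 and Pde4a -0.41 ± 0.11.

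CREB target genes were mixed. Both arrays were positive for 4 of 9 and negative for 4, and Nr4a2 was the 1 that passed. An unadjusted p under 0.05 was reached by 6 of the 9, against 27.5% of all genes. Ppargc1a, a coactivator of mitochondrial genes, had 0.91 and 1.76 (limma adjusted p = 0.0599) and Dusp1 0.50 and 0.53, against Nr4a1, a close relative of Nr4a2, at -0.30 ± 0.16 (SD, n = 2). Targets of βγ gave 0 calls among 7, with 0 at an unadjusted p under 0.05 in limma's test. Their means ran from -0.25 for Plcb3 to 0.22 for Kcnj3, a channel that βγ opens.

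**Figure D4:**
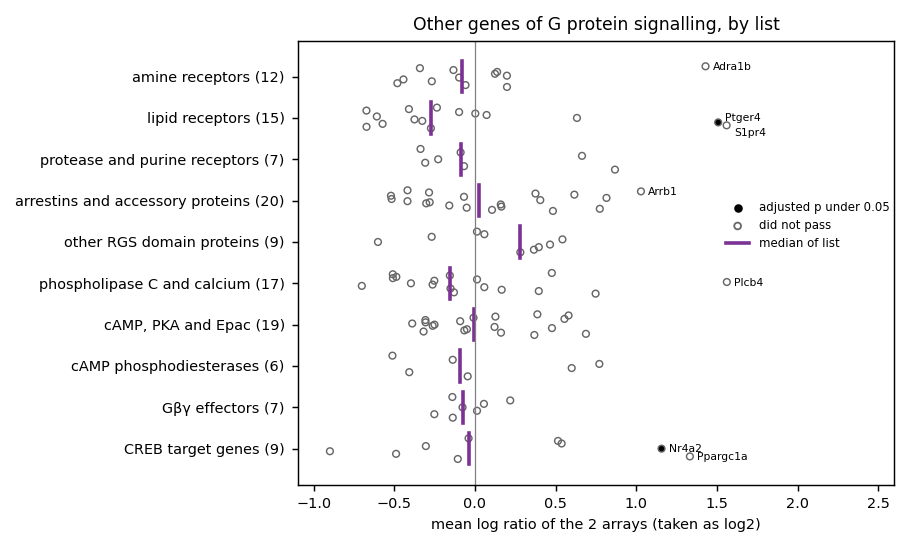
Mean log ratio of the 2 arrays (taken as log2) for the measured genes of 10 lists, with 1 point per gene, the number of genes in parentheses and the median of each list as a purple bar. Filled points passed an adjusted p of 0.05 in limma over all genes (Ptger4 and Nr4a2), and the medians lie between -0.27 and 0.28.

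Markers of the cells these tissues could hold gave ratios only and so do not show which cells were present. Hepatocyte markers, 7 of 10 measured, had means from -0.34 to 0.80 with a median of 0.00, and colonic epithelium markers, 7 of 9 measured, -0.42 to 0.49 with a median of -0.36. None passed in either list by limma, and 2 of each had an unadjusted p under 0.05. The B cell, T and NK cell and platelet lists, which bear on Rgs1 and Rgs18, had medians of -0.01, 0.19 and -0.04 over 5, 6 and 5 genes, again with 0 called by limma and 2, 2 and 1 at an unadjusted p under 0.05. Smooth muscle, neutrophil, macrophage and neuron and glia markers had medians of -0.14, 0.37, -0.20 and 0.17, and 4 of 6, 2 of 3, 3 of 5 and 3 of 7 had an unadjusted p under 0.05. Cnn1 of smooth muscle at 1.15 ± 0.24 (SD, n = 2), Cd14 of macrophages at -1.20 ± 0.33 and Tubb3 of neurons at -1.07 ± 0.18 were called by limma, and the calls were kept in 5, 3 and 4 of 10 alternatives. Each of these lists also held genes on the other side. Of smooth muscle markers 2 were positive and 3 negative on both arrays, of macrophage markers 2 and 3, and of neuron and glia markers 3 and 2. The shares of all genes were 33.9% and 38.2%. Over all marker lists, 6 of 62 measured genes were called and 26 had an unadjusted p under 0.05, against 2.9% and 27.5% of all genes. The part of these cells in the ratio of Rgs16 was not tested.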

How the data were processed

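RNA of primary tumours and liver metastases was compared on 2 arrays of 2 colours, 1 array per biological replicate, after amino-allyl amplification per the labels' protocols. The deposited table holds 1 value per probe and array, a log ratio that was taken as log2. The sources used here do not give its log base, numerator, background correction, spot filter or normalization. Probes were named through the platform annotation, and 3947 old symbols of 23473 probes were updated through unique RefSeq synonyms (GRCm38.p6), 5 of them of members. Probes with a value on both arrays were averaged per gene.

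R 4.3.3 with limma 3.58.1 (lmFit, then eBayes, 1 residual and 4.06 prior degrees of freedom) compared each ratio with 0 over 13506 genes, with Benjamini-Hochberg adjustment and a threshold of 0.05. The fit was tested on simulated data. Of members, any may be named. Of each pathway list, the called genes and up to 3 of those farthest from 0 on their weaker array with 1 sign are named, and of each marker list the called genes. Arrb2, Plcb1, Plcb2, Plcb3, Prkaca, Creb1, Nr4a1, the neighbours of Rgs16, the neighbour pairs and the motifs were chosen after values were seen. Members and lists were chosen with earlier results of these data known. Planned protein comparisons were not made. A pathway list and a marker list that had been planned are not reported here. Upstream sequences come from RefSeq. Other settings tried were centring, scaling, quantile normalization, single probes, unchanged symbols, values on 1 array, robust or no moderation, a minimum fold, a natural log and leaving out each array.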

Additional observations from a re-analysis of the deposited data

How the results depend on the processing

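The call of Rgs16 was kept in 8 of 10 alternatives with a test. Its adjusted p over the 10 ran from 0.0197 in limma to 0.463 in the ordinary t test without moderation. Under quantile normalization limma called 0 of 55 members (12 at an unadjusted p under 0.05, 4 of all genes called), with Rgs16 at -2.71 and an adjusted p of 0.0643. Without moderation, an ordinary t test with 1 residual degree of freedom called 0 as well (7 at an unadjusted p under 0.05, 0 of all genes called). With values on 1 array kept, 3 of 60 members were called, namely Rgs16, Gng11 and Grk1, where 1041 of all 14997 genes were called. Ratios of at least 1 unit on both arrays were met by 1 member (Rgs16, where 0.578% of all genes met it on the negative side). If the values are natural logs, 3 met it (Rgs16, Gng11 and Rgs7). With values on 1 array kept, Grk1, Rgs2 and Gng4 also reached 1 unit, but only on the 1 array that had a value. Leaving out 1 array left 2 members at that size either way, Rgs16 with Rgs6 on array 2 and Rgs16 with Rgs11 on array 1, and gave no count of calls. The share of all genes at that size was not computed for these other settings, so their counts do not set the members apart. The median of the members lay between 0.05 and 0.07 under the 10 alternatives with a test. On the single arrays it was 0.10 and -0.01. Under the 10 alternatives with a test, signs turned for 4 members whose means were next to 0: Gng12 at 0.017 and Rgs18 at 0.0064 after centring, Rgs19 at -0.00045 after scaling and -0.0022 after quantile normalization, and Rgs20 at 0.0027 after scaling. Members whose 2 arrays differ in sign take the sign of the array that is left when the other is dropped, as Rgs5 does at 0.40 on array 1 against a mean of -0.27. Of 546 member values under these 10 alternatives, 538 kept direction and side of the threshold. Much of this was fixed in advance, so the count is no measure of stability. Only centring, scaling and quantile normalization could turn the sign of a member's mean, since each member has 1 probe. Rgs16 was also the only member called at the start. Calls over all genes, 391 in the reported fit, ranged from 0 to 1041. The test of each ratio against 0 is already a comparison within arrays, since each array sets a tumour against a metastasis. No further pairing was possible because the 2 arrays form 1 group. Signal over background could not be examined, since intensities were not used here.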
